A study of Mus musculus with 20 samples.

Results

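Potassium channel genes were followed in mouse soleus RNA. They were taken as the protein-coding genes whose mouse symbol begins with Kcn, a family letter or letters and a digit, except Kcnq1, and 92 of the 56941 gene rows met that rule. By family they were 51 voltage-gated (Kv), 15 inward rectifier (Kir), 12 calcium-activated (the sodium-activated relatives included) and 14 tandem-pore (K2P) channel genes, with pore and auxiliary subunits together. The exposed group held 10 C57BL/6J mice that went through 14 days of hind-limb unloading, ionizing radiation and a stress hormone given through the diet. The control group held 10 C57BL/6J mice that were sham-irradiated. Because the exposures were combined, the effect of each cannot be told apart. Soleus is a small postural calf muscle rich in slow fibres, and a piece of it also holds nerve, vessels and connective tissue. Lower RNA per cell and fewer cells of a type cannot be told apart in such bulk samples.

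Potassium channels let potassium leave or enter the cell down its gradient and so set the resting potential and end each action potential. Kv channels open on depolarization, Kir channels hold the fibre near rest and carry potassium back from the transverse tubules, calcium-activated channels link calcium release to the membrane potential, and K2P channels leak. In muscle fibres the ATP-sensitive Kir channel also ties excitability to the energy state. Pore subunits of all these families share a selectivity filter, a short loop read in the genes as serine or threonine, any residue, glycine, an aromatic residue or leucine, and glycine.

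The filter sequences are shown because they are the feature that makes these genes potassium channel genes, and the genes shown are ones the results of each family turn on. Each is 33 coding bases of the longest coding transcript in GENCODE M21 on GRCm38, 5′ to 3′, with the 15 bases of the filter signature in capitals.
Kcnc4: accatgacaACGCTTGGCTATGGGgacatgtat
Kcnj2: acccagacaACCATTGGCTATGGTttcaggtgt
Kcnma1: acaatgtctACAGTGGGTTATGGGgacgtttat
Kcnk5, pore loop nearer the start: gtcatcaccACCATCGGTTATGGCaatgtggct
Kcnk5, pore loop nearer the end: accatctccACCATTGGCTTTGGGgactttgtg

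The signature was found in the coding sequence of 29 of 29 Kv pore genes, 10 of 10 genes of the silent Kv modifiers and 15 of 15 Kir genes. All 14 K2P genes held it at 2 places, which is the double pore loop that names the family. It was in none of the 12 genes of Kv auxiliary subunits and none of the 4 genes of BK beta subunits, which are proteins that do not line the pore. Kcna6 and Kcnh2 held it at 2 places although their channels have a single pore loop per subunit, so a match alone does not mark a pore.

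Libraries held 17336017 to 43424464 counts, and 16778 rows were tested after a filter on low counts. The tissue label was checked against marker genes. Myh7, the slow myosin heavy chain, had 2353 to 7271 CPM in exposed libraries, against 8134 to 11970 CPM in control libraries (CPM, counts scaled to library size, here after TMM scaling). All 11 slow-fibre markers were called lower and 11 of 12 fast-fibre markers higher. Summed Schwann and myelin markers were 604.3 to 1670 CPM in exposed replicates 1 to 4 and 126.8 to 233.8 CPM in exposed replicates 5 to 10, against 128.5 to 235.4 CPM in controls, so those 4 libraries stand apart and results that rest on them are given with and without them. The labels name the replicates only as a group of 10 mice, and each p-value reflects the spread between these libraries alone.

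Of the 92 genes, 46 passed the filter, 13 were called higher in exposed soleus, 16 lower and 17 were not called at an adjusted p under 0.05 (edgeR quasi-likelihood test, Benjamini-Hochberg adjustment over all genes tested). Among all tested genes 57.6% were called, 28.7% higher and 28.9% lower, and for channel genes the share called was 63.04%. The count of calls is thus near the level of the whole table. By family the share called was 65.38% of 26 tested Kv genes, 62.5% of 8 calcium-activated genes and 66.67% of 6 K2P genes, with 3 of 6 Kir genes called, all to be read against the 57.6% of all genes. Their changes were larger: the median size was 0.60 on the log2 scale, against 0.27 over all genes. Channel genes and all genes were not matched for level, here or in the counts of 2-fold changes below. A change of at least 2-fold was called in 13 channel genes, which is 28.26% of those tested, against 7.19% of all genes. Without exposed replicates 1 to 4, 7 of 48 (14.58%) met that bar, against 6.97% of all genes. Among the 7 were Kcnc4, Kcnf1, Kcng2, Kcnj12, Kcnq3 and Kcnt1. Over all libraries, Kcnf1 and Kcnt1 passed the low-count filter in at most 2 libraries of one group. Without those libraries 12 were called higher (25.0%, against 25.2% of all genes) and 15 lower (31.25%, against 26.1%).

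The other 46 channel genes were too low to test, and 6 of them had no count in any library (Kcnj9, Kcnk9, Kcnk15, Kcnk16, Kcnk18 and Kcnmb3). A count of 0 allows up to 0.0691 to 0.173 CPM depending on the library, which is 3 counts. The untested genes reached at most 0.554 CPM as a group mean. Their highest single library was 1.35 CPM, for Kcnj13, whose exons are covered to 49.06% by the opposite-strand gene Gigyf2. Passing the filter through one group alone was rare: Kcnt1 and Kcnf1 passed its level of 0.323 CPM in at most 2 libraries of one group, and 34 of the tested genes passed it in at least 9 libraries of both.

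**Figure D1:**
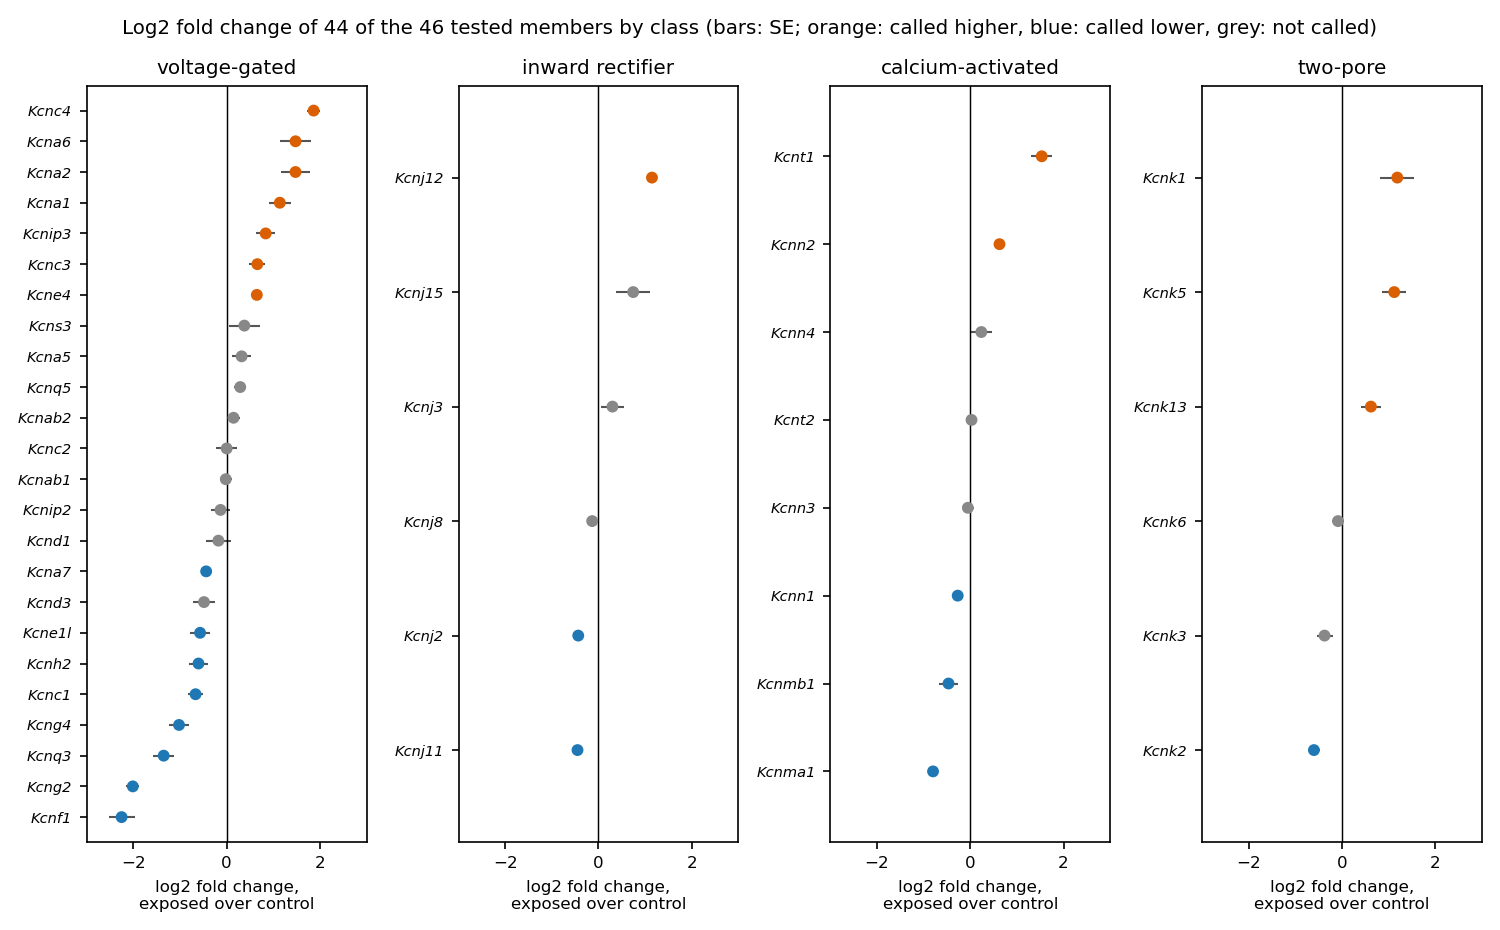
Log2 fold change, exposed over control, of 44 of the 46 tested channel genes by family (bars are SE; orange is called higher, blue called lower, grey not called). Kcnc4 lies furthest right at 1.87, followed by Kcnt1 at 1.53, Kcna6 and Kcna2 at 1.48. Kcnf1 at -2.25 and Kcng2 at -2.01 lie furthest left. Without exposed replicates 1 to 4 (not drawn), the log2 change was 1.22 for Kcnt1, 0.43 for Kcna6 and 0.52 for Kcna2.

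Summed over all 92 genes, channel RNA was lower in exposed soleus: 754.2, 811.6 and 855.6 CPM (lowest, median and highest library) in exposed, against 987.5, 1040.0 and 1093.0 CPM in control. The groups did not overlap. By family, calcium-activated genes summed to 156.2, 211.9 and 248.6 CPM in exposed libraries, against 310.9, 346.7 and 391.2 CPM in controls. Kcnma1 alone had a median of 182.8 CPM in exposed and 317.8 CPM in control libraries. For Kv genes the sums were 237.5, 257.2 and 279.6 CPM in exposed libraries, against 281.6, 297.2 and 321.3 CPM in controls, again with no overlap. Per kilobase of exon the Kv sums did overlap, at 55.7 to 65.1 CPM in exposed libraries, against 64.1 to 72.4 CPM in controls. Kir sums overlapped slightly, at 301.7, 330.1 and 352.9 CPM in exposed libraries, against 344.7, 390.2 and 421.1 CPM in controls. K2P sums overlapped throughout, at 6.56, 8.61 and 14.7 CPM in exposed libraries, against 7.37, 8.65 and 11.2 CPM in controls.

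Levels per kilobase of exon set genes against each other only roughly. The length takes in all annotated exons of a gene, whether or not soleus uses them. Ranks and ratios between genes therefore depend on the annotation. On that scale the 10 genes highest in exposed libraries held most channel RNA. Their median share was 86.39% in exposed libraries, against 87.23% in controls, where Kcnc4 of that set ranked 14. Kcnj2, the main inward rectifier of muscle, was highest in both groups, at a median of 30.9 CPM per kb in exposed, against 43.4 CPM per kb in control. Kcnj12, its close relative, came next in exposed libraries at 23.9 CPM per kb and was the fifth in controls at 10.8 CPM per kb. Kcna7 (a Kv channel gene of skeletal and heart muscle), Kcnj11 and Kcnma1 followed in exposed libraries at 22.6, 19.8 and 10.8 CPM per kb, against 29.4, 27.8 and 18.7 CPM per kb in controls. The exposed ranges of Kcnj2 and Kcnj12 did not overlap, while those of Kcnj12 and Kcna7 and of Kcna7 and Kcnj11 did.

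**Figure D2:**
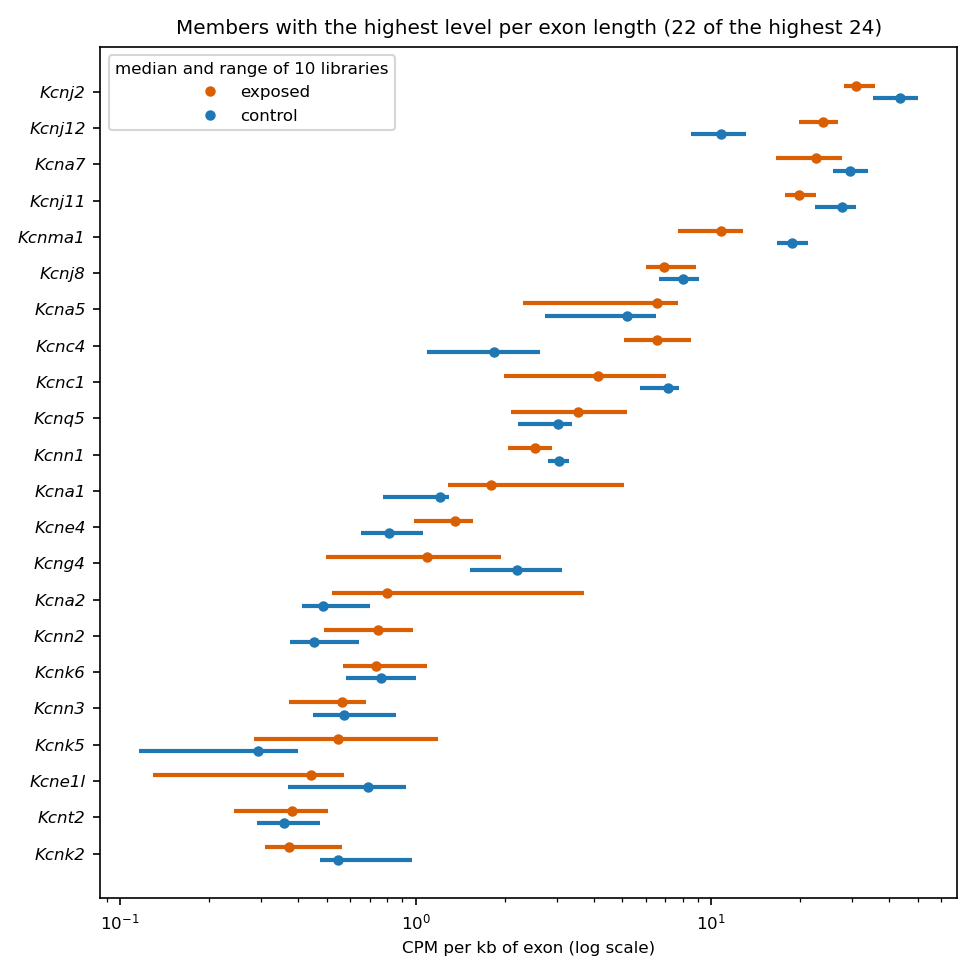
Channel genes with the highest level per exon length, 22 of the highest 24, as median and range of CPM per kb of exon (log scale) over 10 exposed and 10 control libraries. Kcnj12 and Kcnc4 lie to the right of their control ranges, Kcnma1 to the left.

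Among the 26 tested Kv genes 7 were called higher and 10 lower, against 28.7% and 28.9% of all tested genes. The median log2 change of the Kv genes was -0.08. Slow-fibre markers summed to 8523 to 18470 CPM in exposed libraries, against 24350 to 33380 CPM in controls, and fast-fibre markers to 53520 to 70500 CPM in exposed libraries, against 14200 to 21690 CPM in controls; their part in the channel results was not tested. The pore genes split 5 higher and 6 lower of 16 tested, to be read against the same shares of all genes. Kcnc4, the Kv3.4 channel, had 18.5, 24.1 and 31.3 CPM in exposed libraries, against 4.00, 6.78 and 9.69 CPM in controls. The groups lay apart, with a 3.64-fold increase (log2 1.87 ± 0.14 SE, n = 10 each, adjusted p = 1.53e-10, edgeR quasi-likelihood test). Per kb, the ratio of Kcnc4 to Kcnc1, a relative of the same subfamily, was 0.844 to 3.71 in exposed libraries, against 0.189 to 0.386 in controls.

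Kcnc1, the Kv3.1 channel, ran 18.9, 39.2 and 66.6 CPM in exposed libraries, against 54.2, 67.7 and 73.7 CPM in controls. Exposed replicates 1 to 4 were lowest, at 18.9 to 36.7 CPM. The fit gave a 1.59-fold decrease (adjusted p = 0.00141), and 0.00993 without those 4 libraries. Kcna7 had 36.1, 49.4 and 60.2 CPM in exposed libraries, against 56.4, 64.2 and 73.8 CPM in controls, a 1.36-fold decrease (adjusted p = 1.77e-05) with little overlap. Its exposed replicates 1 to 4 were also lowest, at 36.1 to 43.5 CPM. The log2 change was -0.44 over all libraries and -0.29 without those 4 (edgeR adjusted p = 1.24e-04). Kcna5, the cardiac and vascular Kv1.5, was not called (adjusted p = 0.154), with 6.59, 18.8 and 22.1 CPM in exposed libraries, against 7.86, 14.9 and 18.7 CPM in controls. Without exposed replicate 1, its lowest library, the adjusted p was 0.017.

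The Kcnq genes encode M-type channels, which are slow and open near rest. Kcnq3 was low in both groups, with 0.0721, 0.400 and 0.637 CPM in exposed libraries, against 0.529, 0.945 and 1.38 CPM in controls (log2 -1.35, adjusted p = 8.82e-06). Kcnq5 had 16.1, 27.3 and 40.0 CPM in exposed libraries, against 17.1, 23.3 and 26.0 CPM in controls. It lay just past the threshold (adjusted p = 0.0503) and was called without exposed replicates 1 (0.0057), 4 (0.0309) or 9 (0.0481) or control replicates 3 (0.044), 6 (0.0465) or 8 (0.0444). Without exposed replicates 1 to 4 its log2 change was 0.42 (adjusted p = 0.00392), against 0.29 over all libraries. It was also called with size factors of DESeq2 (0.0421), upper-quartile factors (0.0208) or library size alone (0.00903), by the test of DESeq2 (0.0222) and with a filter at 1 CPM (0.0327), but not by limma-voom. Kcnh2, the ERG channel known in mice for a part in muscle wasting, had 0.504, 1.16 and 2.02 CPM in exposed libraries, against 1.34, 1.79 and 2.79 CPM in controls (log2 -0.60, adjusted p = 0.00921). Exposed libraries lay below the control mean in 8 of 10.

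Silent Kv subunits form no channel alone and alter the Kv channels they join. Of 4 tested, 3 were called lower and none higher, where 28.9% of all tested genes were called lower, and 4 genes are too few to read a family result from. Kcng2 had 0.360, 0.457 and 0.597 CPM in exposed libraries, against 1.07, 1.83 and 2.56 CPM in controls, a 4.04-fold decrease (log2 -2.01 ± 0.14 SE, adjusted p = 1.17e-10) with the groups apart. Kcng4 had 1.89, 4.16 and 7.39 CPM in exposed libraries, against 5.83, 8.40 and 11.9 CPM in controls (log2 -1.02, adjusted p = 1.24e-04). Kcnf1, named here after its values were seen, had 0, 0.129 and 0.264 CPM in exposed libraries, against 0.464, 0.604 and 0.862 CPM in controls (edgeR adjusted p = 7.42e-07). Kcnf1 passed the low-count filter through the control group, with at most 2 exposed libraries past its level. Its exposed values lay near the floor, so its call adds little to the count of 3. Kcns3, the remaining tested silent subunit, was not called, at a median of 0.701 CPM in exposed and 0.675 CPM in control libraries (adjusted p = 0.328).

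Of the auxiliary Kv genes, Kcne4, a small inhibitory subunit, had 2.63, 3.62 and 4.16 CPM in exposed libraries, against 1.73, 2.16 and 2.82 CPM in controls (log2 0.65, adjusted p = 1.25e-05). Kcne3, the partner of Kv3.4 in muscle, was not tested, with a median of 0.182 CPM in exposed and 0.292 CPM in control libraries. Kcnip3, a calcium-binding partner of Kv4 channels, was called higher (log2 0.84, adjusted p = 0.00132). Kcne1l was called lower (log2 -0.57, adjusted p = 0.0201), and without exposed replicates 1 to 4 its log2 change was nearly the same at -0.565, with an adjusted p of 0.0666. Among all tested genes 28.7% were called higher and 28.9% lower. Of 10 tested Kv partner and anchoring genes outside the Kcn names, 4 were called higher and 1 lower. That 1 was Lgi1, whose secreted protein binds the Kv1-associated receptor ADAM22, with 4.75, 10.1 and 12.2 CPM in exposed libraries, against 25.3, 33.6 and 43.3 CPM in controls (log2 -1.79, adjusted p = 3.98e-10).

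**Figure D3:**
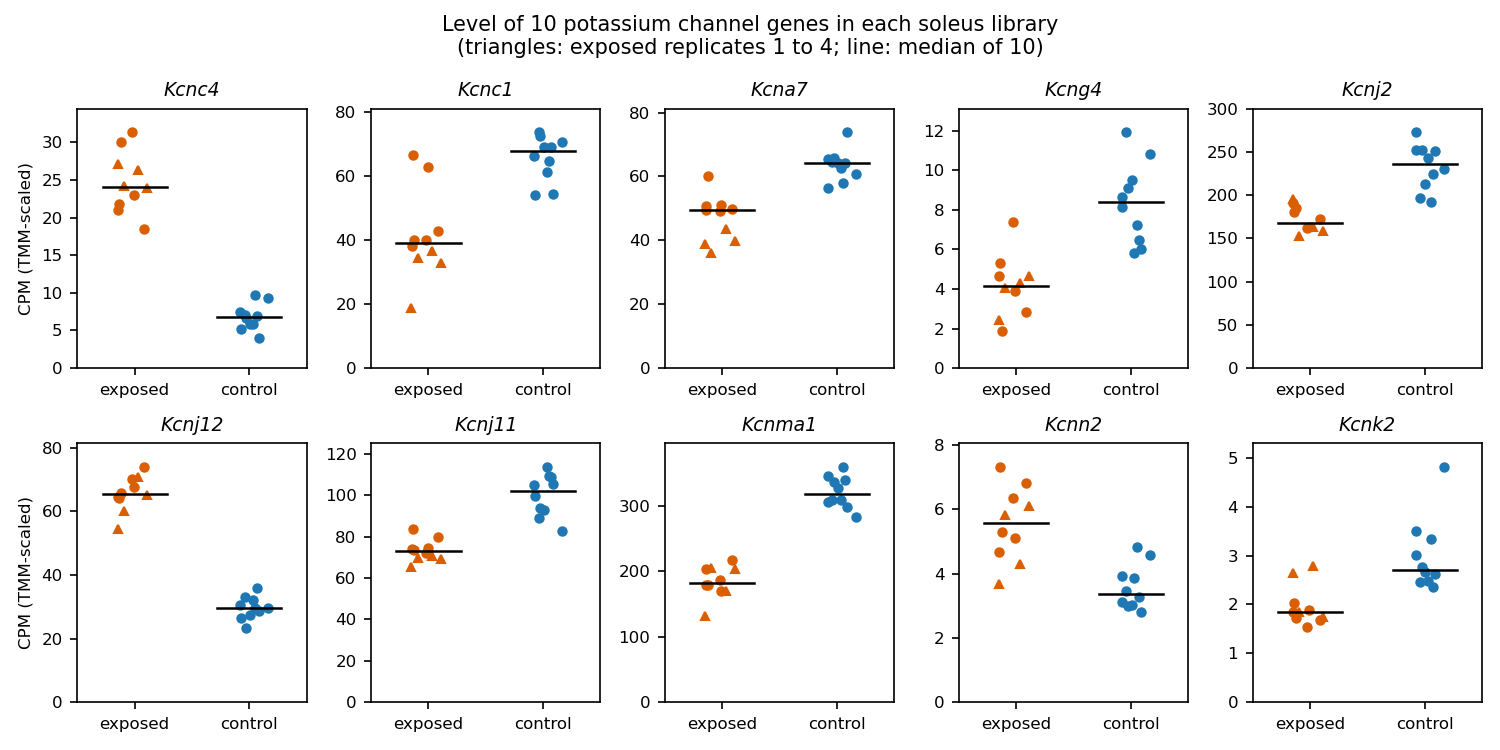
CPM of 10 channel genes in each library (triangles are exposed replicates 1 to 4, lines are medians of 10). Exposed and control points do not overlap for Kcnc4, Kcnj12 and Kcnma1.

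Kcna1, Kcna2 and Kcna6 encode Kv1 channels that sit beside the nodes of myelinated axons, and are named here after their values were seen. Kcna1 had 6.17, 8.57 and 24.2 CPM in exposed libraries, against 3.72, 5.78 and 6.21 CPM in controls. Kcna2 had 6.21, 9.51 and 44.3 CPM in exposed libraries, against 4.91, 5.80 and 8.31 CPM in controls. The high values were those of exposed replicates 1 to 4, at 15.5 to 24.2 CPM for Kcna1 and 19.5 to 44.3 CPM for Kcna2. The log2 change was 1.14 for Kcna1 and 1.48 for Kcna2 over all libraries (adjusted p = 4.61e-04 and 8.49e-04). Without those 4 libraries it was 0.47 and 0.52 (adjusted p = 8.22e-04 and 6.05e-04). Kcna6 had 4.22 to 9.06 CPM in exposed replicates 1 to 4 and 1.199 to 2.10 CPM in exposed replicates 5 to 10, against 0.781 to 1.88 CPM in controls, with 39.61% of its exons under an opposite-strand transcript. The log2 change of Kcna6 was 1.48 over all libraries (edgeR adjusted p = 0.00126). Without those 4 libraries it was 0.43, with an adjusted p at the threshold (0.05). Schwann and myelin markers moved with these genes, 15 of 16 of them called higher (against 28.7% of all tested genes), and their part in the result was not tested. Adipocyte markers summed to 150.6 to 364.4 CPM in exposed replicates 1 to 4 and 25.97 to 158.5 CPM in exposed replicates 5 to 10, against 24.97 to 177.5 CPM in controls, and their part was not tested either. Neuron and axon markers went the other way against controls. Of 11 listed, 3 were tested and all were called lower, Stmn2 (log2 -1.70), Uchl1 (log2 -1.52) and Prph (log2 -0.73). The list summed to 5.29 to 13.5 CPM in exposed replicates 1 to 4 and 3.96 to 6.74 CPM in exposed replicates 5 to 10. In controls the sum was 13.96 to 22.03 CPM. The part of these markers in the result was not tested. The defining markers Nefl and Nefm, which were not tested, were at 0 in most libraries of both groups.

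**Figure D4:**
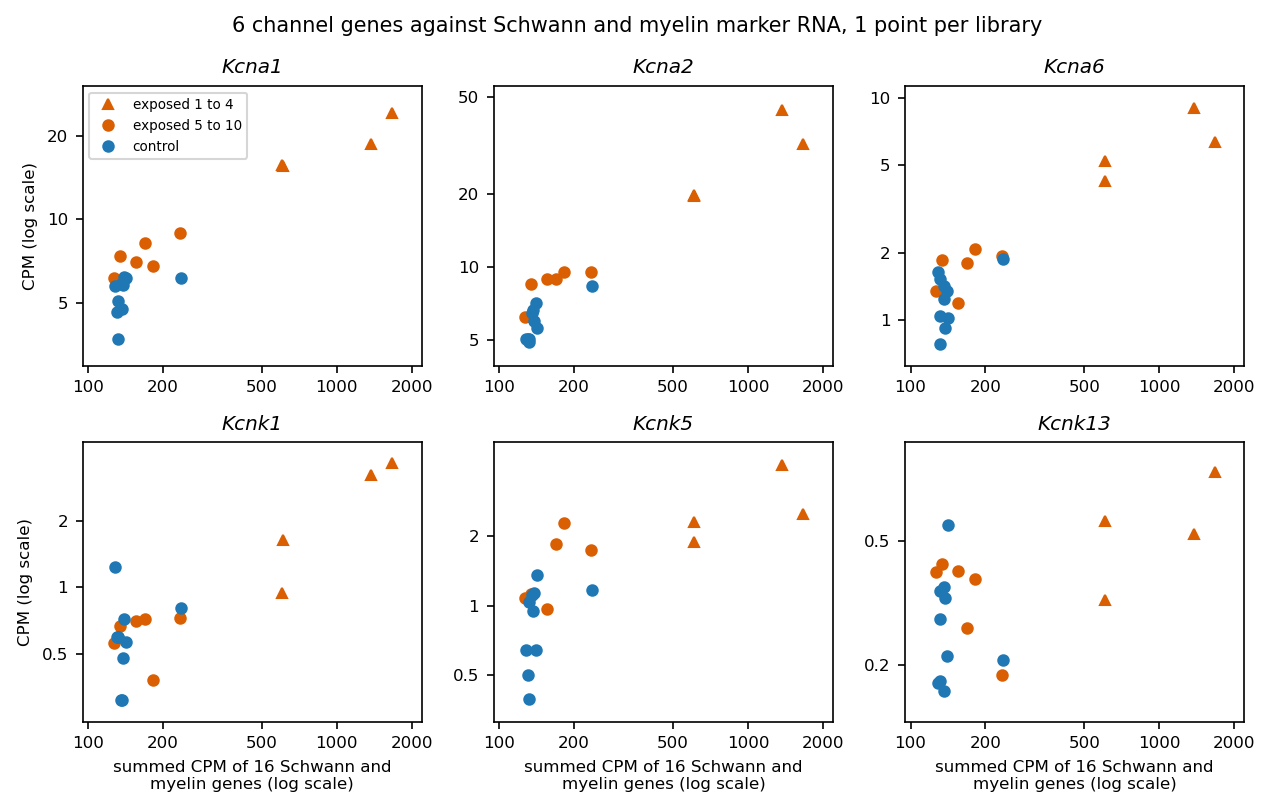
CPM of 6 channel genes (vertical, log scale) against the summed CPM of 16 Schwann and myelin genes (horizontal, log scale), 1 point per library. Exposed replicates 1 to 4 (triangles) lie at 604.3 to 1670 CPM of marker RNA, and the other exposed libraries and the controls reach at most 235.4 CPM.

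Kir genes gave 1 call higher and 2 lower among 6 tested, against 28.7% and 28.9% of all tested genes. Kcnj12, encoding Kir2.2, had 54.5, 65.6 and 74.1 CPM in exposed libraries, against 23.5, 29.7 and 36.0 CPM in controls. Every exposed library lay above every control library, with a 2.21-fold increase (log2 1.147 ± 0.07 SE, adjusted p = 2.85e-13, edgeR quasi-likelihood test). Kcnj2, encoding Kir2.1, had 152.7, 167.9 and 195.4 CPM in exposed libraries, against 191.8, 236.5 and 272.8 CPM in controls, a 1.35-fold decrease (adjusted p = 1.9e-06). Kir2.1 and Kir2.2 subunits can assemble together, and per kb the ratio of Kcnj12 to Kcnj2 was 0.552 to 0.861 in exposed libraries, against 0.184 to 0.332 in controls.

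The promoters of Kcnj12 and Kcnc4, the called-higher genes with the smallest p, are shown from RefSeq (GRCm38.p6), 250 bases before to 50 after the start. Capitals mark E-boxes (CANNTG, the motif of MyoD-type factors) and, in Kcnj12, the MEF3 motif TCAGGTT on either strand. Kcnj12 lies at chr11:61065554-61065853 on the plus strand and Kcnc4 at chr3:107458849-107459148 on the minus strand.
Kcnj12: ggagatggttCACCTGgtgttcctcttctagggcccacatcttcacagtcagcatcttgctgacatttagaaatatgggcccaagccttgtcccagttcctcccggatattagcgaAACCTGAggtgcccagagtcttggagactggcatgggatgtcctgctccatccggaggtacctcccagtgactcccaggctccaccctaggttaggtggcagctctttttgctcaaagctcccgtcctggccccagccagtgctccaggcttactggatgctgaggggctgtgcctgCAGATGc
Kcnc4: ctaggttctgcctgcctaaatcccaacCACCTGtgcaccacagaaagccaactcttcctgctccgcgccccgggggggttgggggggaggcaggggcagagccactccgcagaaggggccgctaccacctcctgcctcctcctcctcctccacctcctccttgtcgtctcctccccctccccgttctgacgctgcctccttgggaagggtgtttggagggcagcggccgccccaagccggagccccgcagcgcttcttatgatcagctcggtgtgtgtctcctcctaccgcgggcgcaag

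Promoters were found for 68 of the 92 genes, 93 in all. An E-box was in 73.1% of them, against 72.3% of all 32851 promoters of that length, and MEF3 was in 2.15% (Kcnh4 and Kcnj12) against 4.07%. The MEF2-type motif was in 2.15% against 3.69%, the NFAT-type core TGGAAA in 20.4% against 21.4% and the MCAT motif CATTCC in 15.1% against 14.7%. These matches only describe the letters in the window.

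The ATP-sensitive channel of muscle is built from the Kir6.2 pore (Kcnj11) and sulphonylurea receptors, with Kir6.1 (Kcnj8) in vessels. Kcnj11 had 65.3, 72.9 and 83.5 CPM in exposed libraries, against 82.5, 102.1 and 113.7 CPM in controls, a 1.37-fold decrease (adjusted p = 1.72e-07) with overlap only at the border. Kcnj8 was not called (adjusted p = 0.0972), with 15.3, 17.7 and 22.6 CPM in exposed libraries, against 17.0, 20.4 and 23.2 CPM in controls, and the adjusted p was 0.0271 without exposed replicate 10. The receptor gene Abcc9 was 1.11-fold higher, at a median of 383.7 CPM in exposed and 344.8 CPM in control libraries (adjusted p = 0.00248), while Abcc8 was low and not called. Vessels express Kcnj8 and Abcc9 too. Of 11 smooth muscle and pericyte markers, Rgs5 (log2 -0.12), Cspg4 (log2 -0.60) and Higd1b (log2 -0.64) were called lower and Pdgfrb (log2 0.25) and Lmod1 (log2 1.09) higher. Without desmin, which fibres make, the list summed to 764.2 to 841.6 CPM in exposed libraries, against 799.8 to 923.5 CPM in controls, and its part in the channel results was not tested. Kcnj15, a low gene, had 0.336, 0.804 and 1.60 CPM in exposed libraries, against 0.117, 0.366 and 1.46 CPM in controls (adjusted p = 0.0766). It was called without control replicates 1 (0.0119) or 2 (0.0411) or exposed replicate 8 (0.0461), by limma-voom (0.0376) and with the replicate block (0.04). Its log2 change was 0.74 over all libraries and 0.39 without exposed replicates 1 to 4 (adjusted p = 0.444).

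Among 8 tested calcium-activated genes 2 were called higher and 3 lower, against 28.7% and 28.9% of all tested genes. Kcnma1, the pore of the large-conductance BK channel, had 131.2, 182.8 and 217.7 CPM in exposed libraries, against 283.4, 317.8 and 359.5 CPM in controls. The groups lay apart, with a 1.74-fold decrease (log2 -0.80 ± 0.07 SE, adjusted p = 5.44e-10). Gamma subunits set the voltage at which BK opens. Lrrc52 had 0.400, 0.876 and 1.71 CPM in exposed libraries, against 11.2, 16.7 and 21.6 CPM in controls (log2 -4.16, adjusted p = 7.77e-13). Lrrc38 was higher, with 13.8, 17.5 and 20.2 CPM in exposed libraries, against 5.88, 9.20 and 13.8 CPM in controls (log2 0.86, adjusted p = 4.96e-06). Lrrc55 was low and lower in exposed soleus (log2 -1.41, adjusted p = 3.68e-05).

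**Figure D5:**
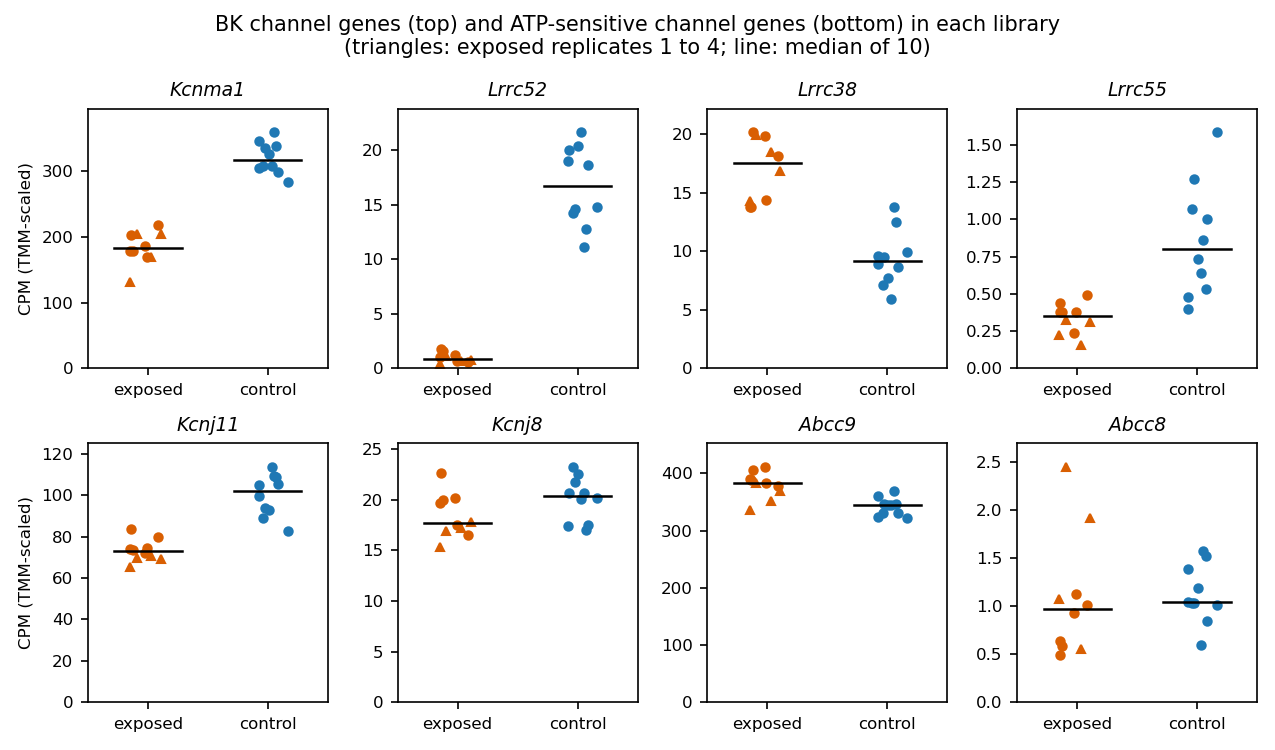
CPM in each library of the BK pore Kcnma1 with the gamma subunit genes Lrrc52, Lrrc38 and Lrrc55 (upper), and of Kcnj11 and Kcnj8 with the receptor genes Abcc9 and Abcc8 (lower). Triangles are exposed replicates 1 to 4. Kcnma1 and Lrrc52 show no overlap between groups, and Lrrc38 lies higher in exposed libraries.

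The beta subunit gene Kcnmb1, typical of smooth muscle, was just called lower (adjusted p = 0.0499), with 0.336, 0.778 and 1.199 CPM in exposed libraries, against 0.530, 1.18 and 1.47 CPM in controls. The call was lost when any 1 of 14 of the 20 libraries was left out, and kept without exposed replicates 1, 6, 8 or 9 or control replicates 5 or 7. It was also lost without exposed replicates 1 to 4 (log2 -0.30, adjusted p = 0.241), and with size factors of DESeq2 (0.054), upper-quartile factors (0.0856) or library size alone (0.107). Small-conductance genes moved both ways. Kcnn2 had 3.67, 5.57 and 7.33 CPM in exposed libraries, against 2.81, 3.38 and 4.82 CPM in controls (log2 0.63, adjusted p = 1.3e-04), with every exposed library above the control mean. Kcnn1 had 9.44, 11.6 and 13.3 CPM in exposed libraries, against 12.8, 14.0 and 15.1 CPM in controls (log2 -0.27, adjusted p = 3.14e-04). Kcnn3, the SK3 channel that appears on denervated fibres, was not called (adjusted p = 0.721), at a median of 5.90 CPM in exposed and 5.96 CPM in control libraries, and Chrna1 of the acetylcholine receptor was not called either (adjusted p = 0.498). Kcnt1, a sodium-activated channel, was higher from a very low level, with 0.527, 0.634 and 1.41 CPM in exposed libraries, against 0.0892, 0.258 and 0.411 CPM in controls (edgeR adjusted p = 1.12e-05). Kcnt1 passed the low-count filter through the exposed group, with at most 2 control libraries past its level. Its relative Kcnt2 was not called (edgeR adjusted p = 0.86).

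K2P genes were low throughout and 3 of 6 tested were called higher, 1 lower, against 28.7% and 28.9% of all tested genes. The higher calls of Kcnk1 and Kcnk13 were lost without exposed replicates 1 to 4, and 6 genes are too few to read a family result from. Kcnk2, the mechanically gated TREK-1 channel, had 1.53, 1.84 and 2.79 CPM in exposed libraries, against 2.35, 2.71 and 4.81 CPM in controls (log2 -0.60, adjusted p = 5.26e-04). All exposed libraries lay below the control mean, and 12.22% of its exons lie under an opposite-strand transcript. Kcnk5, the acid-sensitive TASK-2 channel, had 0.966, 1.86 and 4.05 CPM in exposed libraries, against 0.395, 0.995 and 1.36 CPM in controls (log2 1.12, adjusted p = 4.54e-04), and 0.72 with adjusted p = 0.0152 without exposed replicates 1 to 4. Kcnk1 had 0.937 to 3.64 CPM in those 4 libraries and 0.378 to 0.721 CPM in exposed replicates 5 to 10, against 0.307 to 1.23 CPM in controls. Its log2 change was 1.18 (adjusted p = 0.0152), and 0.09 without them (adjusted p = 0.788). Summed Schwann markers were highest in the same 4 libraries, where adipocyte markers were also high, and the part of neither in the result was tested.

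Kcnk13 was called higher by a narrow margin (adjusted p = 0.0474), with 0.187, 0.399 and 0.827 CPM in exposed libraries, against 0.165, 0.248 and 0.563 CPM in controls. The call was lost without any 1 of 14 of the 20 libraries and was kept without exposed replicates 2, 5 or 7 or control replicates 2, 4 or 7, and its adjusted p was 0.483 without exposed replicates 1 to 4. Kcnk6 was not called (adjusted p = 0.552), at a median of 3.04 CPM in exposed and 3.17 CPM in control libraries. Kcnk3, the TASK-1 leak channel, was not called either (adjusted p = 0.0862), with 0.358, 0.551 and 1.04 CPM in exposed libraries, against 0.437, 0.818 and 1.07 CPM in controls. It was called without exposed replicate 4 (0.0225) or control replicate 5 (0.0342), and without exposed replicates 1 to 4 (0.0122).

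Groups of samples did not overlap at all in 7 of 46 tested channel genes, 3 higher and 4 lower (15.22%, against 17.4% of all tested genes, 6.48% higher and 11.0% lower). Kcnc4, Kcnj12 and Kcnt1 were the higher ones, and Kcnf1, Kcng2 and Kcnma1 were among the lower ones. Kcnt1 and Kcnf1 passed the low-count filter in at most 2 libraries of their lower group, so they were tested through the other group. Exposed Kcnf1, at 0 to 0.264 CPM, lay near the floor of 0.0691 to 0.173 CPM. In 23 of the 29 called genes the 10 exposed libraries all lay on 1 side of the mean of the controls. The calls came from these same libraries and the share over all called genes was not counted. The count is therefore not a result about channel genes.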

How the data were processed

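RNA was measured in 20 soleus libraries, 10 exposed and 10 control. The authors deposited raw counts for each Ensembl gene, not normalized. Per the submitters' processing notes, MultiQC 1.15, Subread, featureCounts 1.5.1, edgeR and the build GRCm39 were used. The strand setting, annotation release and handling of shared reads were not given in the sources used here. Reads of a gene and an opposite-strand partner therefore cannot be told apart. Per the labels' protocols, libraries were made from 90 ng of total RNA depleted of ribosomal RNA.

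Names and exon lengths came from GENCODE M21 (GRCm38), matched by identifier for 51948 of 56941 rows with 97.62% of counts. Counts were tested in R 4.3.3 with edgeR 4.0.16: filterByExpr (minimum count 10, total 15), TMM scaling, robust quasi-likelihood fits and Benjamini-Hochberg adjustment at 0.05 over all 16778 genes tested. SEs belong to the exposed minus control difference in mean log2 CPM (prior count 2). The script was checked on simulated data. Alternatives included DESeq2 1.42.0 and limma 3.58.1 (voom).

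Genes named were, per family, called genes of at least 0.5 CPM on average in order of p, genes with a known muscle role and the highest uncalled ones; Kcna1, Kcna2, Kcna6, Kcnc1, Kcne1l, Kcnf1, Kcnip3 and Kcns3 were added after their values were seen. Partner and marker lists were given by counts and summed CPM. The members, lists and alternatives were chosen with earlier results of these data known. Floors cover counting error only. A few of the genes and sequences this rule takes are not reported here.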

Additional observations from a re-analysis of the deposited data

Results flagged for a closer look

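In each group of 10 libraries, the gap between the highest or lowest library and its neighbour was set against the range (Dixon's criterion). Of 92 groups of libraries, 7 were marked, and chance marks about 1 in 20. Kcna5 stood at 6.592 CPM in exposed replicate 1, with the next library at 14.05 CPM. Kcne1l stood at 0.1998 CPM in exposed replicate 6. Kcnk5 stood at 4.045 CPM in exposed replicate 1, and Kcnt1 at 1.409 CPM in exposed replicate 4. In control libraries, Kcnip2 stood at 0.9253 CPM in replicate 2, Kcnk13 at 0.5629 CPM in replicate 7 and Kcnk2 at 4.814 CPM in replicate 6.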

How the results depend on the processing

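The count of channel genes called was 9 to 17 higher and 12 to 17 lower over all settings, and 12 to 15 higher and 15 to 17 lower when 1 library was left out. Equal counts hid changed calls: Kcnk13 was lost and Kcnq5 gained by DESeq2 (13 higher, 16 lower), and Kcnk13 was lost and Kcnj15 gained by voom. The other 3 scalings each lost Kcnmb1 and gained Kcnq5, the block lost Kcnk1 and Kcnk13 and gained Kcnj15, and no filter lost Kcnk13 and Kcnmb1. Without exposed replicates 1 to 4 it was 12 higher (25.0%, against 25.2% of all genes) and 15 lower (31.25%, against 26.1%). No called gene changed direction in any setting run. The genes that did were not called: Kcnab1 (log2 0.04 with upper-quartile factors, 0.06 with library size alone, 0.009 with the replicate block), Kcnc2 (-0.019 with voom, -0.002 with no filter, -0.021 with the block), Kcnn3 (0.009 with upper-quartile factors, 0.031 with library size alone), and, without exposed replicates 1 to 4, Kcnab2 -0.075, Kcnc2 -0.339, Kcnip2 0.072, Kcnn4 -0.03, Kcns3 -0.505 and Kcnt2 -0.019. With 1 library left out, Kcnab1 ran from -0.071 to 0.064, Kcnc2 from -0.146 to 0.104, Kcnn3 from -0.091 to 0.026 and Kcnt2 from -0.032 to 0.078. The cause was not tested. Same-numbered libraries did not deviate together (correlations -0.132 to 0.0982). That gave no sign of pairing, but low correlations cannot exclude that the numbers share some handling. With the replicate block 12 were called higher and 16 lower. Depth limits the 46 untested genes.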

Other observations

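Genes that act on channel protein in the membrane were also measured. Of 7 tested, 3 were called higher and 2 lower, against 28.7% and 28.9% of all tested genes. Nedd4l, a ubiquitin ligase that removes channels from the membrane, had 54.8, 66.7 and 75.2 CPM (lowest, median, highest) in exposed libraries, against 25.7, 30.5 and 37.0 CPM in controls, with no overlap (log2 1.11, adjusted p = 1.06e-12, edgeR quasi-likelihood test). Sgk1, a hormone-induced kinase that restrains that ligase, had a median of 88.6 CPM in exposed and 59.0 CPM in control libraries (log2 0.47, adjusted p = 0.0251). Wnk1, a kinase of ion transport, had a median of 549.5 CPM in exposed and 701.1 CPM in control libraries (log2 -0.36, adjusted p = 4.26e-07).

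Other marker lists were counted in the same libraries, to be read against the 28.7% of all tested genes called higher and 28.9% lower. Endothelial genes gave 1 called higher and 4 lower of 10, fibroblast genes 2 higher and 4 lower of 8, macrophage and leukocyte genes 3 higher of 9 tested, satellite cell genes 2 higher of 4, denervation response genes 5 higher and 3 lower of 9 tested, muscle fibre genes 4 higher and 2 lower of 9, and smooth muscle and pericyte genes 2 higher and 3 lower of 11. No adipocyte gene of 5 was called by edgeR, and their sum was 26.0 to 364.4 CPM in exposed and 25.0 to 177.5 CPM in control libraries.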
